A study of Mus musculus with 6 samples.

Results

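The genes described are 6 aquaporins (Aqp1, Aqp2, Aqp3, Aqp4, Aqp6 and Aqp11), the 3 subunits of the epithelial sodium channel (Scnn1a, Scnn1b and Scnn1g) and Fxyd4. They were chosen by symbol, and all 10 were found among the 7373 genes of the deposited table. The mice were adult males of the inbred strain FVB/N. In the transgenic group (3 samples) a transgene overexpressed CryAB carrying R120G, a missense mutation, under the α-myosin heavy chain promoter, which is active in heart muscle cells, and kidneys were taken ahead of heart failure. The control group (3 samples) was matched for age and sex. Both groups are kidneys that had not undergone ischemia-reperfusion. The transgene is driven in the heart, so the kidney level of its endogenous counterpart does not check the labels, and each frozen piece of kidney mixes cortex and medulla. The labels do not say how many animals the samples came from, so the p-values reflect the spread among the 6 samples only, which may be technical. In such tissue, fewer cells of a type and less RNA per cell cannot be told apart.

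Aquaporins are membrane channels for water, and the kidney places different ones along the nephron. Aqp1 carries water across proximal tubule and thin descending limb cells. In principal cells of the collecting duct, vasopressin moves the Aqp2 protein into the apical membrane and raises its transcription through cAMP, and water leaves the cell through Aqp3 and Aqp4. The sodium channel, built from an α, a β and a γ subunit, admits sodium across the apical membrane of the same cells under the control of aldosterone. Sodium leaves on the other side through the Na,K-ATPase, whose activity FXYD proteins modulate.

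No member differed between transgenic and control kidneys beyond the spread of the samples. None of the 10 genes passed an adjusted p of 0.05 in edgeR's quasi-likelihood test with Benjamini-Hochberg adjustment over 7194 genes. In that fit 1 gene, Ren1, which encodes renin, passed, 0.0139% of all genes. No member had an unadjusted p under 0.05, against 1.82% of all genes, and DESeq2 likewise called 0 of the 10, with 0 at an unadjusted p under 0.05. The transgenic and control values of every member overlapped. Of all genes, 5.98% had groups that did not overlap, a share at which few or none of 10 genes would. Log2 fold changes, given as transgenic minus control, ran from -0.24 (Aqp4) to 0.08 (Scnn1a), with 4 members higher and 6 lower. Their median was -0.05 and that of all genes was 0.00. The median size of the log2 fold change was 0.075 among the members and 0.075 among all genes.

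**Figure D1:**
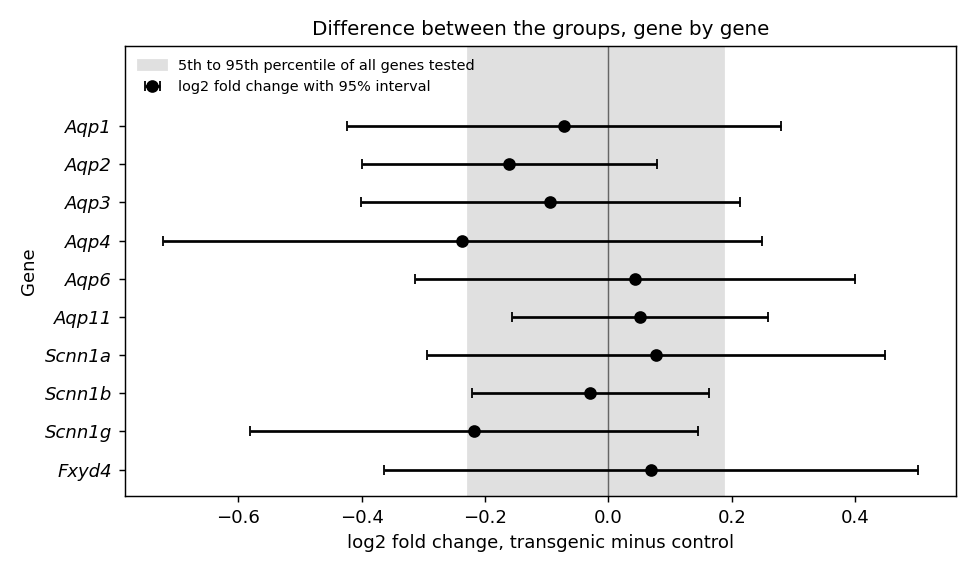
Log2 fold change of each gene (x axis, transgenic minus control) with its 95% interval from edgeR, by gene (y axis). The grey band spans the 5th to 95th percentile of all genes tested, -0.23 to 0.19. Every interval includes 0, and 9 of the 10 points lie inside the band.

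In control 3, every listed gene of X or Y (178 genes) was at 0, as no other gene was, and these were left out of the fit. No member lies on either chromosome. On the first principal component of the genes that were kept (51.9% of the variance), control 3 lay at 24.7 and the other libraries at -12.5 to 0.71. It was the lowest or the highest library for 67.4% of all genes and for 6 of the 10 members. Depth was 23.5 to 47.6 M estimated reads per library over the listed genes. The members had from 374 estimated reads (Scnn1g, transgenic kidney 2) to 61527 (Aqp1, control 3). Counting error was therefore at most 5.2% of a value, which covers counting only.

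The sequences before the start sites of Aqp2 and Aqp3 are shown because these genes encode the apical and a basolateral water channel of the same principal cells. Both are from RefSeq, build GRCm38.p6, and give the 250 bases before the start, 5′ to 3′ on the gene's strand. Aqp2 lies on the plus strand (chr15:99578806-99579055) and Aqp3 on the minus strand (chr4:41098184-41098433). Capitals mark matches to searched letters.
Aqp2: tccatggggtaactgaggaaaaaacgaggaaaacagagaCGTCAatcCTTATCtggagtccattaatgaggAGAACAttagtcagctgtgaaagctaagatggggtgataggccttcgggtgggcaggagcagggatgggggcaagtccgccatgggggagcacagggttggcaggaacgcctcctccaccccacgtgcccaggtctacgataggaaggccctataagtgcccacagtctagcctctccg
Aqp3: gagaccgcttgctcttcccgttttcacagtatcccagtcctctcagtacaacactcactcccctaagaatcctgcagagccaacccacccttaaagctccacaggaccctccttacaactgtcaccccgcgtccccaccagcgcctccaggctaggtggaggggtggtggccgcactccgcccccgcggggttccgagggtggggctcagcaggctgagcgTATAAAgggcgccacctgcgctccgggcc
The windows of 8 members were searched on both strands for the letters of known motifs, and 32851 windows of this length served as the background. No window was available for Scnn1a, and that of Aqp4 was not searched. The cAMP response element was searched as TGACGTCA (in 1.55% of all windows) and in a short form that the full one contains, TGACG (17.8%). The hormone response element was searched in its full form (0.00913%) and in a short form contained in it, AGAACA (16.1%). The TATA box was searched as TATAAA (12.4%). The GATA site was searched as GATAAG (6.55%). For the core of the tonicity element the letters were TGGAAA (18.6%). In the window of Aqp2 the short cAMP form matched on the reverse strand at position -211 from the start. The GATA site matched on the reverse strand at -203, and the short hormone form matched at -179. In the window of Aqp3 the TATA box matched at -29. These 4 were the matches found in the 8 windows, and a match describes letters only.

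Among the aquaporins, the one of the proximal tubule and thin descending limb was the most abundant in counts. Levels are given as CPM, a gene's estimated counts scaled to the same library size in each sample. Aqp1 (gene ID 11826; on mm10, chromosome 6, 55336299 to 55348555) measured 958, 1125 and 1322 CPM in controls 1, 2 and 3 and 1201, 878 and 1159 in transgenic kidneys 1, 2 and 3. The transgenic values fell inside the control range except for kidney 2, the lowest of all 6. The log2 fold change was -0.07 ± 0.15 (SE; 95% interval -0.42 to 0.28), and it was 0.05 without control 3 and 0.06 without transgenic kidney 2.

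Aqp2 (gene ID 11827; chromosome 15, 99579056 to 99584545), the water channel that vasopressin regulates, stood at 692, 670 and 599 CPM in controls and at 626, 514 and 614 in transgenic kidneys. Controls averaged 654 ± 48.3 (SD, n = 3), and transgenic kidneys averaged 585 ± 61.3 (SD, n = 3). Controls 1 and 2 were above all 3 transgenic kidneys, but control 3 lay below transgenic kidneys 1 and 3. Its log2 fold change was -0.16 ± 0.10 (SE; 95% interval -0.40 to 0.08; adjusted p = 0.997, edgeR). Without transgenic kidney 2 it was -0.08. With limma and array weights it was -0.21, with an unadjusted p of 0.0224 and an adjusted p of 0.499. In that fit 634 of 7194 genes had an unadjusted p under 0.05, against 131 in the main edgeR fit.

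Aqp3 (gene ID 11828; chromosome 4, 41092724 to 41098183), a basolateral channel that also passes glycerol, stood at 99.0, 90.8 and 114 CPM in controls and at 92.1, 82.1 and 110.5 in transgenic kidneys. The groups covered nearly the same range, and the log2 fold change was -0.09 ± 0.13 (SE; 95% interval -0.40 to 0.21). Leaving out either control 3 or transgenic kidney 2 brought it to 0.00. Aqp4 (gene ID 11829; chromosome 18, 15389394 to 15410982), the other basolateral channel, varied most among controls, at 36.1, 21.9 and 41.8 CPM. Its transgenic values of 30.7, 25.7 and 28.3 all lay inside that range. The log2 fold change of -0.24 ± 0.21 (SE; 95% interval -0.72 to 0.25) was the largest in size among the members, and 6.95% of all genes had a larger one. It rested on single controls: it was -0.46 without control 2 (unadjusted p = 0.00486, adjusted p = 0.578, edgeR) and -0.03 without control 3. Without control 2, 597 of 7194 genes had an unadjusted p under 0.05 in edgeR, against 131 with all 6 libraries. Aqp4 was also the 1 member that passed the authors' level filter in only 2 of the 6 samples, and the other 9 passed in all 6. A listed gene needed at least 2 passes, and the 2 highest Aqp4 values were those of controls 3 and 1. Its place in the table may therefore rest on high control values, which was not tested.

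Aqp6 and Aqp11 act outside principal cells. Aqp6 (gene ID 11831; chromosome 15, 99598468 to 99605478), which encodes an intracellular channel of acid-secreting intercalated cells, stood at 51.1, 42.7 and 33.3 CPM in controls and at 48.5, 39.8 and 42.4 in transgenic kidneys (log2 fold change 0.04 ± 0.16, SE). Control 3 was the lowest value and control 1 the highest, with the transgenic kidneys between them. Without control 3 the log2 fold change was -0.10. Aqp11 (gene ID 66333; chromosome 7, 97726379 to 97738247) encodes a channel of the endoplasmic reticulum, and mice that lack it develop cystic proximal tubules. It was the steadiest aquaporin, at 37.6, 36.8 and 36.4 CPM in controls and at 41.5, 35.5 and 37.9 in transgenic kidneys (log2 fold change 0.05 ± 0.09, SE; 95% interval -0.16 to 0.26).

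**Figure D2:**
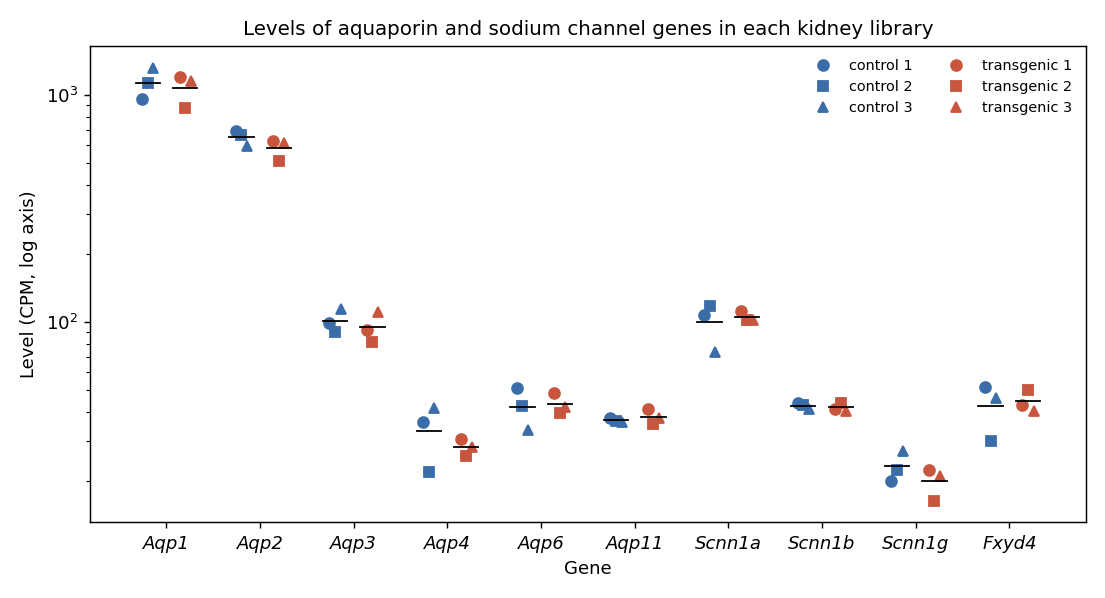
Level of each gene (y axis, CPM, log axis) in each of 3 control and 3 transgenic libraries, with the group mean as a bar. The 2 groups overlap for every gene, from Aqp1 at 878 to 1322 CPM down to Scnn1g at 16.4 to 27.1.

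None of the 3 channel subunits passed the test. Scnn1a (gene ID 20276; chromosome 6, 125314271 to 125344943), the α subunit, without which the channel carries little current, stood at 107, 118 and 73.8 CPM in controls and at 111.5, 102 and 102 in transgenic kidneys. Control 3 was far below the other 5 libraries, which lay between 102 and 118. The log2 fold change was 0.08 ± 0.16 (SE; 95% interval -0.29 to 0.45) with control 3 and -0.10 without it. Scnn1b (gene ID 20277; chromosome 7, 121865038 to 121918728), the β subunit, was at 44.2, 43.3 and 41.3 CPM in controls and at 41.5, 44.2 and 40.5 in transgenic kidneys. Its highest value was 1.09 times its lowest, the narrowest range of the 10 genes, where the median gene of the table had 1.29 times. The log2 fold change was -0.03 ± 0.08 (SE; 95% interval -0.22 to 0.16).

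Scnn1g (gene ID 20278; chromosome 7, 121734420 to 121768482), the γ subunit, was at 19.96, 22.3 and 27.1 CPM in controls and at 22.3, 16.4 and 21.0 in transgenic kidneys. Control 3 was the highest and transgenic kidney 2 the lowest of the 6, and the other 4 values lay between 19.96 and 22.3. The log2 fold change was -0.22 ± 0.16 (SE; 95% interval -0.58 to 0.15; adjusted p = 0.997, edgeR). It was -0.09 without control 3, -0.10 without transgenic kidney 2 and -0.02 with limma and array weights. Scnn1g and Scnn1b lie in the same orientation with 96.6 kb between them, and Aqp2 and Aqp6 with 13.9 kb between them.

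Fxyd4 (gene ID 108017; chromosome 6, 117933558 to 117937714) encodes CHIF, a corticosteroid-induced partner of the Na,K-ATPase in the collecting duct. It was at 51.6, 30.0 and 46.5 CPM in controls and at 43.2, 50.5 and 40.7 in transgenic kidneys. The lowest value was again that of control 2, as for Aqp4, and the transgenic values lay inside the control range. The log2 fold change was 0.07 ± 0.19 (SE; 95% interval -0.36 to 0.50), and -0.13 without control 2.

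The kidneys of each group differed from one another about as much as, or more than, the groups did. In transgenic kidney 2, 5 of the 10 members had their lowest value (Aqp1, Aqp2, Aqp3, Aqp11 and Scnn1g), whereas 15.7% of all genes did. Relative to the mean of the 6 libraries, Scnn1g was at -0.38 there on the log2 scale, Aqp1 at -0.32, Aqp2 at -0.26 and Aqp3 at -0.25, while Fxyd4 was at 0.23. Summed levels of marker genes in that kidney were 908 CPM for 8 thin limb and inner medulla genes, against 1027 to 1189 in the other 5 libraries, and 13120 for 9 proximal tubule genes, inside the range of 12940 to 14240 over the 6 libraries. The 4 measured principal cell markers that are not members (Hsd11b2, Gata3, Tfap2b and Hoxb7) summed to 226.5 CPM there, inside the range of 209.7 to 251 over the 6 libraries. The part of tissue composition in the low values was not tested.

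Spread within controls was largest for Aqp4 (SD of log2 CPM 0.49), Fxyd4 (0.41), Scnn1a (0.36) and Aqp6 (0.31), where the median gene had 0.15. In transgenic kidneys the same 4 genes had SDs of 0.13, 0.16, 0.07 and 0.14, where the median gene had 0.09. They were the 4 members with the larger SD in controls, and 70.5% of all genes had the larger SD there. Scnn1b and Aqp11 had the smallest SDs in controls, 0.05 and 0.03, which for Aqp11 is within its counting error.

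**Figure D3:**
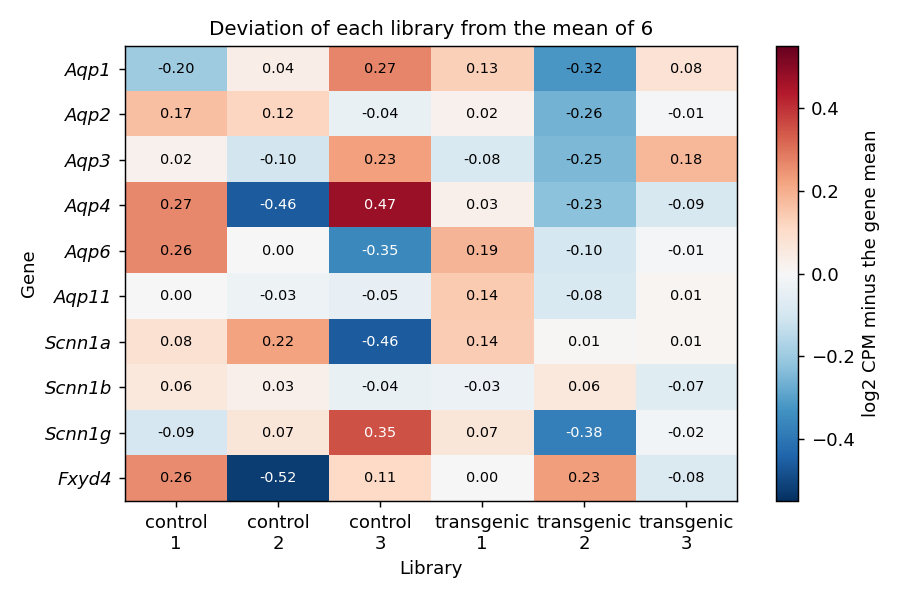
Deviation of each library (columns) from the mean of the 6 libraries for each gene (rows), as a log2 CPM difference shown by colour and number. Transgenic kidney 2 is low for Aqp1, Aqp2, Aqp3, Aqp4 and Scnn1g, control 2 is low for Aqp4 and Fxyd4, and control 3 is low for Scnn1a and high for Aqp4 and Scnn1g.

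Levels were compared between genes per kilobase of the longest protein-coding transcript in GENCODE M21. On that scale of CPM per kb, control Aqp2 averaged 461 ± 34.1 (SD, n = 3) and transgenic Aqp2 412 ± 43.2 (SD, n = 3), and Aqp1 averaged 432 ± 69.4 (SD, n = 3) and 411 ± 66.8 (SD, n = 3) in the same order. The 2 overlapped, so the order between them is not set. Aqp3 followed at 46.5 to 64.6 CPM per kb over the 6 libraries, apart from all other members. Fxyd4 (25 to 43), Scnn1a (21.1 to 33.7), Aqp6 (16.2 to 24.8) and Scnn1b (16.3 to 17.8) each overlapped the next in order. Aqp11 lay between 9.49 and 11.1, above Scnn1g (5.47 to 9.07) and Aqp4 (4.33 to 8.27), which overlapped each other. The places of Fxyd4 and Aqp4 depend most on the transcript. With the shortest annotated one, of 0.52 and 1.11 kb, their control means were 81.8 and 30.1 CPM per kb instead of 35.6 and 6.58. Those of Scnn1a and Aqp6 moved less, to 35.5 and 29.7 from 28.5 and 20.6. Per kilobase the α subunit exceeded β and β exceeded γ in each of the 6 libraries, with control means of 28.5, 17.3 and 7.73.

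Ratios of 2 genes in 1 library do not depend on how libraries are scaled, and 8 of them were tested with two-sided exact permutation tests, for which 3 samples against 3 cannot go below p = 0.1. No ratio had groups that did not overlap. The CPM ratio of Scnn1g to Scnn1a was 0.186, 0.189 and 0.367 in controls and 0.200, 0.161 and 0.206 in transgenic kidneys. Control 3 stood above the other 5 libraries, and the log2 difference of -0.32 (exact permutation p = 0.6, adjusted p = 0.8 over the 8 ratios) became 0.00 without it. Scnn1b to Scnn1a was 0.412, 0.367 and 0.559 in controls and 0.372, 0.434 and 0.397 in transgenic kidneys, again with control 3 highest.

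Aqp6 to Aqp2, the ratio with the smallest p, was 0.0738, 0.0637 and 0.0556 in controls and 0.0774, 0.0774 and 0.0691 in transgenic kidneys. Control 1 lay above transgenic kidney 3, so the groups overlapped. The log2 difference was 0.22 (exact permutation p = 0.2, adjusted p = 0.8), and 0.12 without control 3. For Aqp3 to Aqp2 the log2 difference was 0.06 (0.22 without control 3), for Aqp2 to Aqp1 -0.09 (-0.27 without control 3), for Aqp4 to Aqp3 -0.09 (0.01), for Scnn1g to Scnn1b -0.19 (-0.04) and for Fxyd4 to Scnn1a 0.00 (0.28). The exact permutation p of these 5 ranged from 0.6 to 1.

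**Figure D4:**
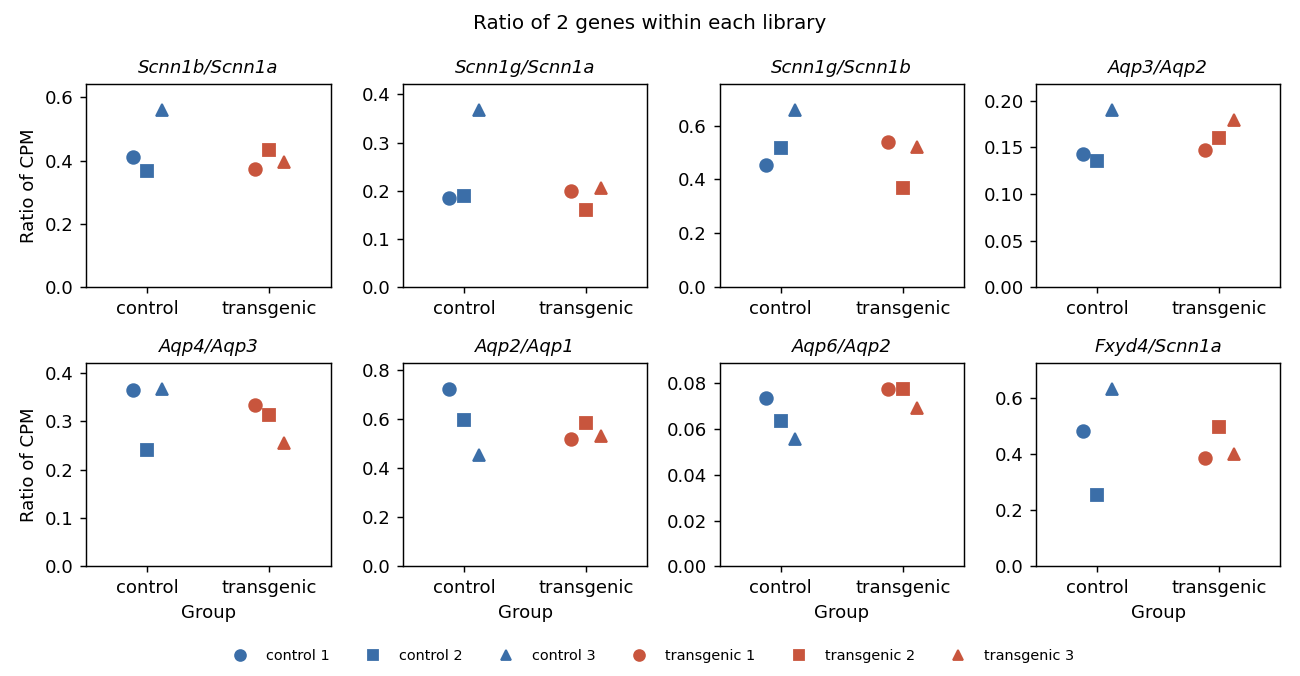
Ratio of the CPM of 2 genes (y axis, linear from 0) in each of 3 control and 3 transgenic libraries, for 8 pairs. Scnn1g to Scnn1a is 0.367 in control 3 and between 0.161 and 0.206 in the other 5 libraries, and both groups overlap in every pair.

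Genes that act with the members were read from 4 lists, and none of their genes passed the test over all genes. Of 27 vasopressin signalling genes 15 were tested, with 4 higher, 11 lower and a median log2 fold change of -0.03. Those with the smallest p-values were Snap23, a membrane fusion protein (-0.34), the protein kinase A subunits Prkacb (-0.16) and Prkar1a (-0.07), and Rab11a, a GTPase of recycling vesicles (-0.15). The receptor gene Avpr2 is among those not tested. Adcy6, an adenylate cyclase gene named here after its values were seen, was at 178, 206 and 130 CPM in controls and at 208, 180 and 174.5 in transgenic kidneys, low in control 3 as Scnn1a was.

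Of 29 genes of aldosterone response and channel regulation 22 were tested, with 12 higher, 10 lower and a median of 0.00. For 3 of them the groups did not overlap, where 5.98% of all genes had this. Stk39, which encodes the kinase SPAK that acts on sodium chloride cotransporters, was lower, at 42.1, 39.2 and 47.5 CPM in controls and 32.2, 37.0 and 30.8 in transgenic kidneys. Its log2 fold change was -0.37 ± 0.11 (SE) with an unadjusted p of 0.010 and an adjusted p of 0.997 (edgeR). Hsd11b2, whose enzyme inactivates glucocorticoids in principal cells and so leaves the mineralocorticoid receptor to aldosterone, was at 142, 131 and 134 CPM in controls and 167, 145 and 148 in transgenic kidneys. It was higher in all 3 transgenic kidneys, by 0.17 ± 0.09 (SE) on the log2 scale (unadjusted p = 0.078, adjusted p = 0.997, edgeR). The third was Usp10 (log2 fold change -0.06), named after its values were seen. Nedd4l, the ubiquitin ligase that removes the channel from the membrane, differed by 0.16.

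Sgk1, the aldosterone-induced kinase that restrains Nedd4l, was also chosen after its values were seen. It was at 78.0, 80.2 and 107 CPM in controls and at 92.7, 54.1 and 97.6 in transgenic kidneys, highest in control 3 and lowest in transgenic kidney 2, as Scnn1g was. The list held no common pattern: Per1, also picked after its values were seen, was lowest in control 3, at 64.3 CPM against 69.6 to 122.7 elsewhere. The channel-activating protease gene Prss8, chosen likewise, differed by 0.09. Of 10 genes of basolateral sodium exit and potassium recycling 8 were tested, with 2 higher, 6 lower and a median of -0.14. They were led by the Na,K-ATPase β1 subunit gene Atp1b1 (-0.20), the potassium channel genes Kcnj16 (-0.16, groups not overlapping) and Kcnj1 (-0.15), and Atp1b3 (-0.13). Of 16 other genes of the 3 families 3 were tested. Aqp7, an aquaglyceroporin of the proximal tubule, differed by -0.09, Fxyd1 by 0.21 and Fxyd2, the γ subunit of the Na,K-ATPase, by -0.01. The lists share genes: Fxyd1 and Fxyd2 were counted in both of the last lists, and Kcnj1 also among the thick ascending limb markers.

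Markers of the cell types involved were measured beside the members. Of 13 principal cell markers 10 were tested, 6 of them members, with 3 higher, 7 lower and a median of -0.07. Their summed level was 1086 to 1173 CPM in controls and 960 to 1107 in transgenic kidneys, most of it Aqp2. Of 13 intercalated cell markers, which include Aqp6, 12 were tested, with 8 higher, 4 lower and a median of 0.06, and sums of 1061 to 1248 and 1108 to 1130 CPM. Of 9 thin limb and inner medulla genes 8 were tested, with 1 higher, 7 lower and a median of -0.12, and sums of 1027 to 1189 and 908 to 1039 CPM. This list holds Cryab, the mouse's own counterpart of the transgene, at 210.1, 223 and 292 CPM in controls and 186.5, 178 and 194 in transgenic kidneys (log2 fold change -0.38, unadjusted p = 0.016, adjusted p = 0.997, edgeR). It also holds S100a6 (-0.42, unadjusted p = 0.028, adjusted p = 0.997, edgeR). These 2 of the 8 had groups that did not overlap, where 5.98% of all genes had this. The 4 of 7 distal convoluted and connecting tubule markers that were tested were 2 higher and 2 lower, with a median of 0.04. Their sums did not overlap, at 2363 to 2594 CPM in controls and 2672 to 2749 in transgenic kidneys. A sum follows its most abundant genes, and only 1 of these 4 genes had groups that did not overlap. All 7 thick ascending limb markers were lower (median -0.10; sums of 3732 to 4393 and 3563 to 3956 CPM), as were the 6 tested of 7 macrophage markers (median -0.22; 233 to 281 and 208 to 267) and the 4 tested of 6 red blood cell markers (median -0.28; 562 to 965 and 526.5 to 791). The 9 proximal tubule markers were 4 higher and 5 lower, with a median of -0.02. No marker passed the test over all genes. Groups also did not overlap for 2 of the 10 principal cell markers (Hsd11b2 higher, Hoxb7 lower), 1 of 7 thick ascending limb markers and the 1 urothelial gene. None of the intercalated cell, proximal tubule, red blood cell or macrophage markers had such groups. The 1 urothelial gene measured out of 6, Psca, was at 17.6, 18.8 and 27.2 CPM in controls and 7.86, 12.3 and 16.8 in transgenic kidneys. The part of these cell types in the members' values was not tested.

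For 4 members the 2 most similar genes were sought over the 6 libraries, as the mean absolute difference of log2 CPM scaled to the gene's mean and SD. With 7194 genes and 6 libraries, close matches are to be found for almost any gene. Nearest to Aqp1 were Dnajb11 (0.049) and Aldh9a1 (0.068), and to Aqp2 Arl6ip1 (0.140) and Sh3bp5l (0.183). Nearest to Scnn1a were Plxnb1 (0.051) and R3hdm4 (0.054), and to Scnn1g Agfg2 (0.088) and Dnttip1 (0.105). The median over all genes was 1.03 to 1.09 for these 4. Plxnb1 was at 63.8, 70.0 and 39.7 CPM in controls and 66.5, 59.7 and 58.0 in transgenic kidneys. Its low value in control 3 follows from its being picked for likeness to Scnn1a. Among the members, Scnn1g and Aqp1 were nearest to each other (0.290), while Scnn1a was nearest to Aqp6 (0.482).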

How the data were processed

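RNA from 3 control and 3 transgenic kidneys was sequenced. Per the labels, RNA came from column purification and libraries from the standard Illumina procedure. The build was mm10, per the submitters' processing notes, and the sources used here name no aligner or counter. Per the file headers, the table holds genes with a value called NRPKM from 5.0 to 84233.281 in 2 or more of 6 samples. The deposited raw columns hold estimated counts, which were rounded. The deposited normalized columns hold log2 values by the authors and served 1 alternative. Of 24 value columns, 12 carry names of no sample analysed here and stayed unused.

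Genes of X and Y were left out (7195 remain). Then edgeR 4.0.16 (R 4.3.3) with filterByExpr (1 gene removed), TMM and the quasi-likelihood test gave fold changes, with Benjamini-Hochberg adjustment and a threshold of 0.05. Standard errors are the log2 fold change over the square root of F, and 95% intervals use edgeR's total degrees of freedom. CPM uses TMM library sizes. Tests are two-sided. Other settings used DESeq2 1.42.0 and limma 3.58.1. The script was tested on simulated data. RefSeq positions (GRCm38.p6) matched 7364 of 7373 genes. The members, lists, tests and other settings were chosen with earlier results of these data known. The genes named are all members, up to 4 genes with the smallest p-values in each pathway list, and the 2 genes most like each of 4 members. A gene that this rule selects is not reported here.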

Additional observations from a re-analysis of the deposited data

How the results depend on the processing

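The count of members past the threshold was 0 in all 15 other settings that were run. The count of all genes, 1 with edgeR, was 0 with all genes kept, 2 with DESeq2, 0 in the limma fit of the authors' log2 values, and 0 to 2 when 1 library was left out. The 10 members in 14 settings gave 140 fold changes. None of these passed an adjusted p of 0.05, and 13 had the direction opposite to the main fit. With limma and array weights the log2 fold change was 0.145 for Aqp1, -0.142 for Aqp6, -0.016 for Scnn1a and -0.116 for Fxyd4. Leaving out 1 library gave ranges of -0.180 to 0.056 for Aqp1, -0.218 to 0.0012 for Aqp3, -0.103 to 0.199 for Aqp6, -0.0089 to 0.103 for Aqp11, -0.0996 to 0.217 for Scnn1a and -0.131 to 0.225 for Fxyd4. Aqp2, Aqp4, Scnn1b and Scnn1g were lower in all 14 settings, but these settings reuse the same 6 libraries and the sizes moved. They ran from -0.219 to -0.076 for Aqp2, -0.465 to -0.033 for Aqp4 and -0.072 to -0.0024 for Scnn1b. For Scnn1g they ran from -0.312 to -0.016, the last with array weights. The -0.033 of Aqp4 came without control 3. Its place in the table may rest on high control values, and so may its direction, which was not tested. For the log2 ratios, leaving out 1 library gave ranges of -0.263 to 0.042 for Scnn1b to Scnn1a and -0.489 to 0.0018 for Scnn1g to Scnn1a. The ranges were -0.030 to 0.215 for Aqp3 to Aqp2 and -0.290 to 0.022 for Aqp4 to Aqp3. They were -0.268 to 0.068 for Aqp2 to Aqp1 and -0.375 to 0.280 for Fxyd4 to Scnn1a. Scnn1g to Scnn1b stayed below 0, at -0.310 to -0.0175, and Aqp6 to Aqp2 above 0, at 0.120 to 0.325. The labels tie same-numbered kidneys by the number alone. Correlations of their deviations were 0.002, -0.019 and 0.333, and kidneys with different numbers were not compared in this way. With a replicate block the counts were again 1 gene and 0 members. Tests without 1 library had 2 samples in a group.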
